A study of Mus musculus with 37 samples.

Results

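Antibiotics alone were compared with water alone in the brain of adolescent mice that had received only saline injections, using 8 of the 37 RNA libraries of the series. The antibiotics group holds adolescent Abx saline replicates 1, 2 and 5, and the water group holds adolescent water saline replicates 1 to 5. They were chosen by their labels, and Abx saline replicate 3 was left out because its total of 25165 counts is below 1000000. All mice were male, wild type and of the C57BL/6J strain. In both groups treatment started on postnatal day 25 and saline was injected under the skin for 5 days. The antibiotics were given by mouth, and the agents are not named in the labels. The tissue label is brain, while the title speaks of medial prefrontal cortex. Polyadenylated RNA was sequenced in bulk, so each value is an average over all cells of a sample. The other groups of the series (morphine at 15 mg/kg, and adults starting on postnatal day 55) served to estimate the spread between libraries and to ask whether the antibiotic effect differed from theirs. Nothing in the labels says whether the replicates are separate animals, so the p-values measure the spread between these samples.

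Oral antibiotics lower the number of gut bacteria, which supply metabolites that reach the brain through the blood. Microglia, the resident immune cells of the brain, are the cell type best known to respond to the loss of gut bacteria. The endoplasmic reticulum folds secreted and membrane proteins, immediate early genes are switched on within minutes of neuronal activity, and period genes such as Per1 repress the circadian clock and also respond to stimuli.

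The 3 antibiotics libraries held 17011541 to 21161417 counts and the 5 water libraries 10630727 to 27898977. Transcripts of the mitochondrial genome made up 4.62% to 5.00% of counts with antibiotics and 4.36% to 5.24% with water. The summed level of 10 cortical excitatory neuron genes was 7810 to 8771 CPM (read counts per 1000000, scaled with TMM factors) with antibiotics. With water it was 4962 CPM in replicate 1 and 8068 to 8898 CPM in the other 4 libraries. Water replicate 1 also stood apart in genes of other brain tissue. The striatal dopamine receptor gene Drd2 was at 1.12, 1.27 and 1.24 CPM with antibiotics, and with water at 53.3 CPM in replicate 1 and 0.688 to 2.59 CPM in the others. The summed level of 18 myelin genes was 2804 to 2919 CPM with antibiotics, 21550 CPM in water replicate 1 and 1343 to 3173 CPM in the other water libraries. Results are therefore also given for 34 libraries without water replicate 1, beside the fit of 35. Islet hormone transcripts exceeded 20 counts in antibiotics replicate 1 (753 counts) and water replicate 5 (808 counts).

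**Figure D1:**
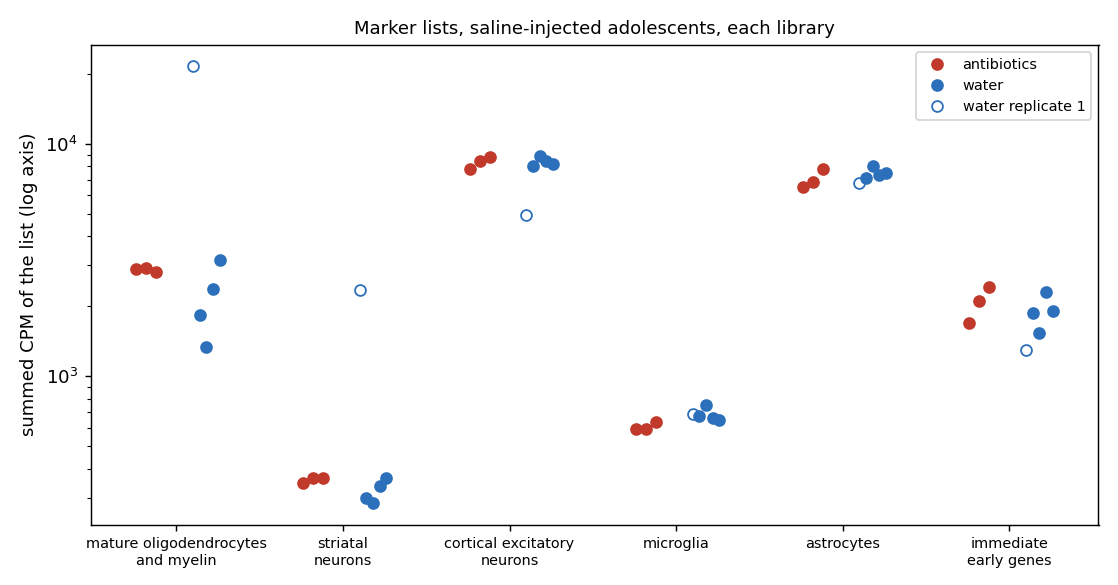
Summed CPM (log axis) of 6 marker lists in each library of saline-injected adolescents, with antibiotics left of water. The open circle is water replicate 1, which sits at 21550 CPM for myelin genes and 2349 CPM for striatal genes, while the other 4 water libraries reach at most 3173 and 364.6 CPM.

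The first question was which genes differed with antibiotics alone. Of 19332 genes tested, 2 rose with antibiotics and 0 fell at an adjusted p under 0.05 (edgeR's quasi-likelihood test with Benjamini-Hochberg adjustment), 0.0103% of all genes. Both encode extracellular or membrane proteins, Igfbp4 and Amn. At an unadjusted p under 0.05, 1905 genes passed (9.85%), of which 885 were higher (4.58%) and 1020 lower (5.28%). Without water replicate 1, 0 of 19253 genes passed in edgeR and the smallest adjusted p was 0.0504. In that fit 1492 genes had an unadjusted p under 0.05 (7.75%), 777 of them higher (4.04%) and 715 lower (3.71%). DESeq2 called 55 genes with all 8 libraries and 22 without water replicate 1. With a weight estimated for each library, limma-voom called 15, and it was run in this way throughout. No gene passed in edgeR when antibiotics replicate 2 or 5 or water replicate 1, 2 or 3 was left out. The count was 3 without antibiotics replicate 1, 8 without water replicate 4 and 30 without water replicate 5.

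Igfbp4 (ENSMUSG00000017493, chromosome 11 from 99041244 to 99054392, plus strand, GRCm38) encodes a secreted protein that binds insulin-like growth factors. It was at 135, 130 and 139 CPM with antibiotics, against 93.3, 101, 90.8, 109 and 110 CPM with water. Every antibiotics library lay above every water library. The means were 134 ± 4.42 CPM with antibiotics (SD, n = 3) and 101 ± 8.93 CPM with water (SD, n = 5), and the log2 fold change was 0.41 (SE 0.07, adjusted p = 0.0254, edgeR). Without water replicate 1 it was 0.39 with an adjusted p of 0.0504, and when each library was left out in turn the adjusted p ranged from 0.00646 to 0.211. In RNA from whole tissue, more cells of a type and more RNA per cell cannot be told apart.

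Other genes of insulin and insulin-like growth factor signalling did not pass. Of 25 tested members of this list, 1 was called. At an unadjusted p under 0.05, 4 were higher and 1 was lower, against 4.58% and 5.28% of all genes. The median log2 fold change was 0.03, beside -0.01 over all genes tested. Foxo3, a transcription factor held out of the nucleus by insulin signalling, averaged 107 ± 1.78 CPM with antibiotics (SD, n = 3) and 94.6 ± 5.40 CPM with water (SD, n = 5; log2 fold change 0.17, adjusted p = 0.273, edgeR), and its groups did not overlap. Irs2, an adaptor of the insulin receptor, showed a log2 difference of 0.20 (adjusted p = 0.391). Igfbp5, another binding protein of the family, had one of -0.35 with all 8 libraries and -0.12 without water replicate 1.

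Igfbp4 was at 128 ± 5.30 CPM with antibiotics and 120 ± 11.3 CPM with water in morphine-injected adolescents (SD, n = 5 each). In saline-injected adults it was at 137 ± 11.5 CPM with antibiotics (SD, n = 5) and 118 ± 9.68 CPM with water (SD, n = 3). In morphine-injected adults it was at 134.5 ± 6.96 CPM with antibiotics (SD, n = 4) and 111.5 ± 6.53 CPM with water (SD, n = 5). The antibiotic effect on Igfbp4 in saline-injected adolescents exceeded that in morphine-injected adolescents by 0.32 on the log2 scale (SE 0.09, adjusted p = 0.451, edgeR) and that in saline-injected adults by 0.20 (SE 0.10, adjusted p = 0.866), so neither difference passed. The water level of saline-injected adolescents was the lowest of the 8 group means.

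Amn (ENSMUSG00000021278, chromosome 12 from 111271095 to 111276426, plus strand, GRCm38) encodes amnionless, the membrane anchor of the receptor that takes up vitamin B12 bound to intrinsic factor. It was at 8.12, 10.5 and 11.7 CPM with antibiotics, against 3.30, 4.75, 4.07, 5.86 and 6.46 CPM with water. The lowest antibiotics library lay above the highest water library. The log2 fold change was 1.05 (SE 0.19, adjusted p = 0.0371, edgeR), and without water replicate 1 it was 0.92 with an adjusted p of 0.0799. Left out in turn, single libraries gave adjusted p from 0.00825 to 0.284.

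No other gene of vitamin B12 uptake passed. Cubn, which encodes cubilin, the ligand-binding partner of amnionless, was at 0.294, 0.463 and 0.383 CPM with antibiotics, against 0.344, 0.475, 1.13, 0.823 and 0.566 CPM with water. These groups overlapped at very low levels (log2 fold change -0.77, adjusted p = 0.621, edgeR). Cd320, the cellular receptor for transcobalamin-bound vitamin B12, had a log2 fold change of -0.09 and Tcn2, which encodes transcobalamin, one of -0.25, and neither passed. Mut, the methylmalonyl-CoA mutase that uses vitamin B12 in mitochondria, averaged 23.8 ± 1.16 CPM with antibiotics (SD, n = 3) and 28.5 ± 3.20 CPM with water (SD, n = 5; log2 fold change -0.26, adjusted p = 0.253). Of the 15 tested members, 1 was called, and 11 had a log2 fold change below 0, against 52.9% of all genes. Without water replicate 1, 0 were called in edgeR and 9 were below 0, against 49.1% of all genes. DESeq2 and limma-voom called Amn alone with all 8 libraries, and DESeq2 called 0 without water replicate 1. Of 21 folate and one-carbon enzymes 0 were called in edgeR, with 0 higher and 3 lower at an unadjusted p under 0.05, and 1 lower without water replicate 1. The shares of all genes that were lower were 5.28% and 3.71% in these fits. These enzymes were also examined with the other tools. DESeq2 and limma-voom called 0 of them. Mthfd1l, a mitochondrial enzyme of that pathway, averaged 15.1 ± 0.68 CPM with antibiotics (SD, n = 3) and 14.3 ± 1.27 CPM with water (SD, n = 5).

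Amn levels in the other groups were 10.4 ± 0.82 CPM with antibiotics and 7.79 ± 2.00 CPM with water in morphine-injected adolescents (SD, n = 5 each). In saline-injected adults they were 8.06 ± 2.00 CPM with antibiotics (SD, n = 5) and 5.47 ± 0.59 CPM with water (SD, n = 3), and in morphine-injected adults 7.32 ± 0.82 CPM with antibiotics (SD, n = 4) and 5.11 ± 1.07 CPM with water (SD, n = 5). The means with antibiotics were above those with water in each of these pairs, which share no library. The log2 fold changes were 0.55, 0.42 and 0.52 in saline-injected adults, morphine-injected adolescents and morphine-injected adults, none past the threshold (adjusted p = 0.397, 0.239 and 0.164, edgeR).

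**Figure D2:**
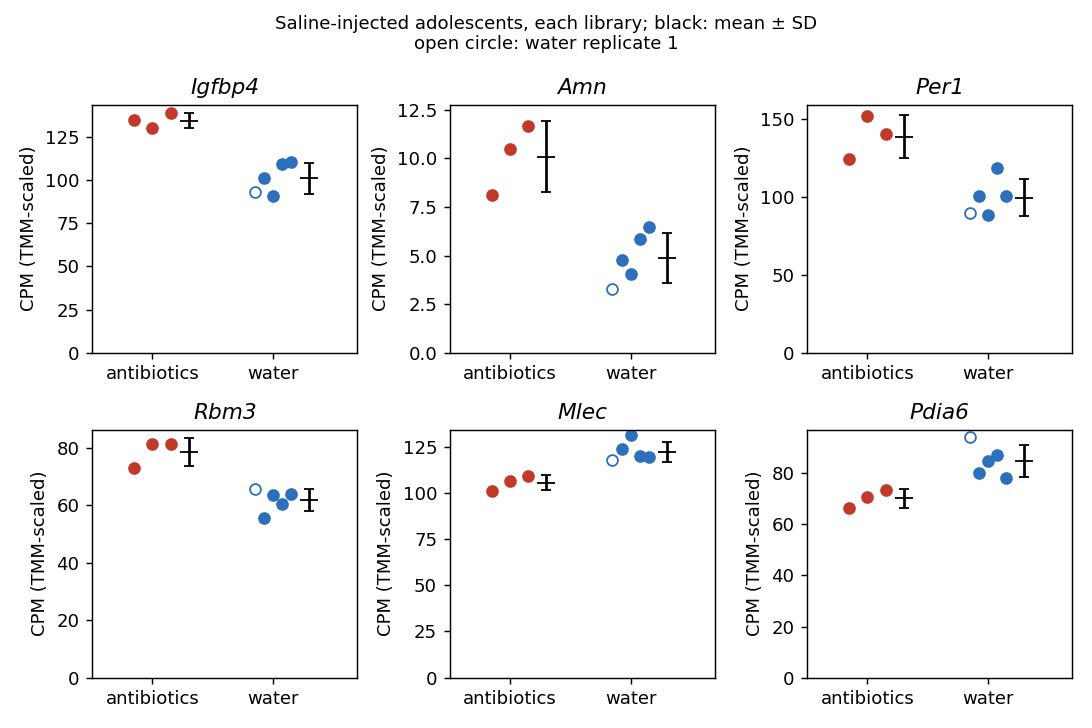
CPM of Igfbp4, Amn, Per1, Rbm3, Mlec and Pdia6 in each of the 3 antibiotics and 5 water libraries, with the mean and SD in black. In each panel the groups do not overlap: the first 4 genes are higher and the last 2 lower with antibiotics, and Igfbp4 and Amn passed the adjusted threshold in edgeR.

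Below these 2 genes, several had an adjusted p between 0.05 and 0.11 and groups that did not overlap, as 2.64% of all genes did in the higher and 2.73% in the lower direction. Sdr39u1, a short-chain dehydrogenase, averaged 60.1 ± 0.95 CPM with antibiotics (SD, n = 3) and 50.4 ± 3.93 CPM with water (SD, n = 5; log2 fold change 0.26, adjusted p = 0.0594, edgeR). Jade2, a subunit of a histone acetyltransferase complex, had a log2 fold change of 0.23 and Lias, which makes lipoic acid in mitochondria, one of 0.28 (adjusted p = 0.0969 and 0.097). Ntn5, a netrin family member, was at 2.53, 2.66 and 2.87 CPM with antibiotics, against 0.55, 0.949, 1.25, 1.74 and 1.602 CPM with water, a log2 fold change of 1.14 (adjusted p = 0.097). Adm, which encodes the vasodilator peptide adrenomedullin, was at 2.12, 2.08 and 1.86 CPM with antibiotics, against 0.653, 0.475, 1.25, 1.06 and 0.99 CPM with water (log2 fold change 1.16, adjusted p = 0.101). With each library left out in turn, the adjusted p in edgeR ranged from 0.00896 to 0.503 for Sdr39u1 and from 0.043 to 0.534 for Jade2. The range was 0.039 to 0.58 for Lias, 0.0325 to 0.534 for Ntn5 and 0.0556 to 0.534 for Adm.

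Among genes with lower levels, Mlec, which encodes the endoplasmic reticulum lectin malectin, was at 101, 106 and 109 CPM with antibiotics, against 118, 124, 131, 120 and 120 CPM with water. All water libraries were higher than all antibiotics libraries, and the log2 fold change was -0.21 (SE 0.05, adjusted p = 0.097, edgeR). Plin2, a coat protein of lipid droplets, averaged 2.99 ± 0.29 CPM with antibiotics (SD, n = 3) and 4.85 ± 0.69 CPM with water (SD, n = 5), and its log2 fold change was -0.71 (adjusted p = 0.108). For Mlec and Plin2 alike, leaving out each library in turn gave an adjusted p from 0.051 to 0.534 (edgeR). Colq, the collagen tail that anchors acetylcholinesterase, was at 0.706, 0.752 and 0.717 CPM with antibiotics, against 0.997, 2.37, 2.94, 2.32 and 1.602 CPM with water. Its log2 fold change was -1.46 with an adjusted p of 0.125, and -1.65 with an adjusted p of 0.0799 without water replicate 1. Pck2, the mitochondrial phosphoenolpyruvate carboxykinase, had log2 fold changes of -0.37 and -0.44 in these fits (adjusted p = 0.132 and 0.0799). Slc2a5, a fructose transporter that in mouse brain is found in microglia, showed a log2 difference of -0.61 (adjusted p = 0.175).

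Per1 had the third smallest p of the comparison. Its promoter is shown because the clock acts on this gene through the E-box CACGTG, a motif bound by the CLOCK and BMAL1 activators. The 300 bases run from 250 before to 50 after a RefSeq start (GRCm38.p6, chr11:69098699-69098998, plus strand), 5′ to 3′, with the E-box in capitals.
Per1: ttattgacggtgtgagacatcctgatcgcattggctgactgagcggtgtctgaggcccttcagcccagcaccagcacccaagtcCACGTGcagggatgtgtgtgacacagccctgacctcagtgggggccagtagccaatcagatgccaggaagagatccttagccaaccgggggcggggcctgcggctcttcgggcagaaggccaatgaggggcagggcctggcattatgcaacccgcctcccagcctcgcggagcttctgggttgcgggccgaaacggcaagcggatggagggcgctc
The motif, searched on both strands, was found in 5 of the 11 clock repressor and output genes that have a promoter in the RefSeq table (Per1, Ciart, Bhlhe41, Cry1 and Tef) and in 8.09% of all 27025 genes with a promoter there (7.15% of 32851 promoters). A match describes letters in this window and is not evidence of binding.

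Per1 was at 124, 152 and 140 CPM with antibiotics, against 90.0, 101, 88.4, 118 and 101 CPM with water. The lowest antibiotics library lay above the highest water library. The log2 fold change was 0.48 (SE 0.09, adjusted p = 0.0594, edgeR), and 0.44 with an adjusted p of 0.2 without water replicate 1. Of the 13 clock repressors and outputs, 12 had a log2 fold change above 0, against 47.1% of all genes, and 0 were called in edgeR. At an unadjusted p under 0.05, 4 were higher and 0 lower, against 4.58% and 5.28% of all genes. Those 4 were Per1, Bhlhe40, Ciart and Hlf. Without water replicate 1 the count was 2 higher, Per1 and Bhlhe41, against 4.04% of all genes. DESeq2 and limma-voom called 1 member, Per1. The transcriptional repressor Bhlhe40 averaged 166 ± 25.2 CPM with antibiotics (SD, n = 3) and 132 ± 27.3 CPM with water (SD, n = 5), with overlapping groups. Ciart, a repressor of the CLOCK and BMAL1 pair, had a log2 fold change of 0.30 with all 8 libraries and 0.21 without water replicate 1. Per2 averaged 43.2 ± 2.24 CPM with antibiotics (SD, n = 3) and 38.6 ± 2.98 CPM with water (SD, n = 5; log2 fold change 0.16, adjusted p = 0.58). Dbp, an output activator whose level follows a strong daily rhythm, had a log2 fold change of 0.10. Of the 7 clock activators 0 were called in edgeR. At an unadjusted p under 0.05, 1 was lower (against 5.28% of all genes), Clock itself, with a log2 fold change of -0.12.

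The cold-inducible RNA-binding proteins Rbm3 and Cirbp stabilise and regulate messenger RNAs and rise when body temperature drops. Rbm3 (chromosome X from 8138975 to 8145880, minus strand, GRCm38) was at 73.0, 81.5 and 81.6 CPM with antibiotics, against 65.6, 55.7, 63.6, 60.5 and 64.0 CPM with water. Cirbp was at 62.5, 65.2 and 63.0 CPM with antibiotics, against 50.5, 56.3, 60.0, 47.0 and 52.4 CPM with water. Neither pair of groups overlapped. The log2 fold change of Rbm3 was 0.34 (adjusted p = 0.0744, edgeR) and that of Cirbp 0.26 (adjusted p = 0.271), so neither passed in saline-injected adolescents, while DESeq2 and limma-voom called Rbm3. In saline-injected adults, where 0.031% of all genes were called, Rbm3 rose by 0.45 on the log2 scale (adjusted p = 0.00245). In morphine-injected adolescents, where 1.11% were called, it rose by 0.34 (adjusted p = 0.0017). Cirbp rose by 0.49 in those adults (adjusted p = 0.00825) and by 0.53 in those adolescents (adjusted p = 0.000235). The antibiotic effect on Rbm3 in saline-injected adolescents minus that in adults was -0.11 (SE 0.10, unadjusted p = 0.279), and for Cirbp it was -0.23 (unadjusted p = 0.0615). Rbm3os, an antisense gene from 8145429 to 8147964 on the plus strand, overlaps Rbm3, and its log2 fold change was 0.43 (adjusted p = 0.101). The sources used here do not give a strand setting for the counting. It is therefore not known how reads from the stretch shared by this pair were assigned.

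Chaperones of the endoplasmic reticulum mostly had negative log2 fold changes, and none passed the adjusted threshold in edgeR. DESeq2 called 2 as lower with all 8 libraries, Pdia6 and Hyou1 (adjusted p = 0.0249 and 0.0320), and 1 without water replicate 1, Hyou1, while limma-voom called 0. Promoters of Hspa5 and Pdia6 are shown because they hold the endoplasmic reticulum stress element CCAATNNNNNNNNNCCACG, through which the stress sensor ATF6 acts. Each spans 250 bases before to 50 after the RefSeq start (GRCm38.p6), 5′ to 3′, with the fixed letters of the element in capitals. Hspa5 lies at chr2:34771840-34772139 and Pdia6 at chr12:17266339-17266638, both on the plus strand.
Hspa5: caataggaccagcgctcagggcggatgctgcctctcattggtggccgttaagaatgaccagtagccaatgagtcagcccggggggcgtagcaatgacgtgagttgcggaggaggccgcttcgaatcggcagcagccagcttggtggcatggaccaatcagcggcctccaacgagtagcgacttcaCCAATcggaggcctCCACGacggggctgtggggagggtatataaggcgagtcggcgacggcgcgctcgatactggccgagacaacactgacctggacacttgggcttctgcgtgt
Pdia6: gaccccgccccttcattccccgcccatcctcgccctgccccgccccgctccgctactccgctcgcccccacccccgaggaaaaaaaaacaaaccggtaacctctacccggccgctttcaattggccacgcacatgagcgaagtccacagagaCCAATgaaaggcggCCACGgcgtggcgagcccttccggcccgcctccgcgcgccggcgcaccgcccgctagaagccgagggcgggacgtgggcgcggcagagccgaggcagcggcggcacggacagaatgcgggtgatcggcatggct
The element, searched on both strands, was found in 7 of the 20 list genes with a promoter in the table (Hspa5, Pdia6, Calr, Canx, Hsp90b1, Dnajc3 and Creld2) and in 37 of all 27025 genes with a promoter there (0.137%). Of the members lower at an unadjusted p under 0.05 in edgeR, Hspa5, Pdia6 and Canx were among these genes. Hyou1, Pdia4, Pdia3 and Dnajb11 were not. A link between the element and the change in level was not tested. This motif was chosen after the values of the list were seen, and it overlapped the E-box in 0 promoters.

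Pdia6, a protein disulfide isomerase, was at 66.2, 70.5 and 73.5 CPM with antibiotics, against 94.2, 80.2, 84.5, 87.0 and 78.0 CPM with water. The highest antibiotics library was below the lowest water library (log2 fold change -0.28, SE 0.06, adjusted p = 0.101, edgeR). Hyou1, a large chaperone of the reticulum, was at 79.2, 81.8 and 80.8 CPM with antibiotics, against 91.9, 92.5, 93.4, 89.8 and 91.5 CPM with water. Its libraries were closely spaced within both groups, with a log2 fold change of -0.19 with and without water replicate 1 (adjusted p = 0.125 and 0.262). Hspa5, the main chaperone of the reticulum, was at 155, 162 and 165 CPM with antibiotics, against 238, 188, 171, 179 and 171 CPM with water. Water replicate 1 was the highest, and the log2 fold change was -0.24 with it and -0.14 without it (adjusted p = 0.271 and 0.586).

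Over the 21 tested members of the list, 17 were below 0 with all 8 libraries and also without water replicate 1, against 52.9% and 49.1% of all genes. The median log2 fold change was -0.10 and -0.08 in these fits, and in every setting tried it lay between -0.12 and -0.08. At an unadjusted p under 0.05, 7 were lower and 0 higher, against 5.28% and 4.58% of all genes. Without water replicate 1 the count was 5 lower and 0 higher, against 3.71% and 4.04% of all genes. The lower ones with all 8 libraries were folding enzymes and chaperones: Pdia6, Hyou1, Pdia4, Hspa5, Canx, Pdia3 and Dnajb11. The members above 0 included the stress transcription factors Atf4 and Ddit3, with log2 fold changes of 0.07 and 0.04. Herpud1, which takes part in degradation of misfolded proteins, had one of 0.09. Of the same 21 genes, 20 were below 0 in saline-injected adults and 19 in morphine-injected adolescents, against 48.9% and 50.5% of all genes there, with medians of -0.17 and -0.15. In morphine-injected adolescents Hspa5 fell by 0.38 (adjusted p = 0.0016) and Pdia6 by 0.31 (adjusted p = 0.0017) on the log2 scale. Of 19 cytosolic heat shock proteins, 0 were called in edgeR and 1 was lower at an unadjusted p under 0.05 (against 5.28% of all genes), with a median of -0.03.

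Microglial markers were below 0 without exception. All 23 tested members had a negative log2 fold change both with and without water replicate 1, against 52.9% and 49.1% of all genes, and the medians were -0.18 and -0.16. None was called in edgeR, DESeq2 or limma-voom. At an unadjusted p under 0.05, 8 were lower and 0 higher, against 5.28% and 4.58% of all genes. Without water replicate 1 the count was 9 lower and 0 higher, against 3.71% and 4.04% of all genes. Markers of 1 cell type share their source, so the 23 genes are not independent measurements. The summed level of the list was 591, 592 and 638 CPM with antibiotics, against 690, 676, 752, 661 and 652 CPM with water. The highest antibiotics library lay below the lowest water library. The median was below 0 in every setting tried, from -0.22 to -0.13.

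Gpr34, a microglial receptor for lysophosphatidylserine, was at 9.47, 11.3 and 10.6 CPM with antibiotics, against 12.96, 13.95, 15.02, 13.12 and 11.97 CPM with water (log2 fold change -0.36, SE 0.12, adjusted p = 0.273, edgeR). P2ry13, a purine receptor, was at 8.12, 9.03 and 7.89 CPM with antibiotics, against 10.35, 10.54, 13.02, 10.65 and 10.79 CPM with water (log2 fold change -0.41, adjusted p = 0.3). Neither gene's groups overlapped. Olfml3 and Fcrls, which are enriched in mouse microglia, had log2 fold changes of -0.46 and -0.28, and their groups did not overlap either. Cx3cr1, the fractalkine receptor, was at 45.6, 43.3 and 50.1 CPM with antibiotics, against 54.2, 47.3, 58.6, 50.8 and 51.3 CPM with water, and its groups overlapped (log2 fold change -0.18, adjusted p = 0.361). The growth factor receptor Csf1r had a log2 fold change of -0.14 and the purine receptor P2ry12 one of -0.13.

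In saline-injected adults 16 of these 23 genes were below 0, against 48.9% of all genes, with a median log2 fold change of -0.04. In morphine-injected adolescents 22 were, against 50.5% of all genes, with a median of -0.15. Neither difference of effect passed for any member. Inflammatory genes did not pass either. Of 14 cytokine and innate immune genes, 0 were called in edgeR. At an unadjusted p under 0.05 only the complement gene C3 was lower, at 0.295 ± 0.212 CPM with antibiotics (SD, n = 3) and 0.93 ± 0.836 CPM with water (SD, n = 5). Without water replicate 1 the count was 1 higher and 1 lower, from Tlr4 and C3, against 4.04% and 3.71% of all genes. Of 26 interferon-stimulated and MHC class I genes, 0 were called. At an unadjusted p under 0.05, 1 was lower (against 5.28% of all genes), the guanylate-binding protein Gbp7 (log2 fold change -0.50). The summed level of 23 endothelial and pericyte markers was 737 to 912.6 CPM with antibiotics and 758.7 to 939.7 CPM with water.

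**Figure D3:**
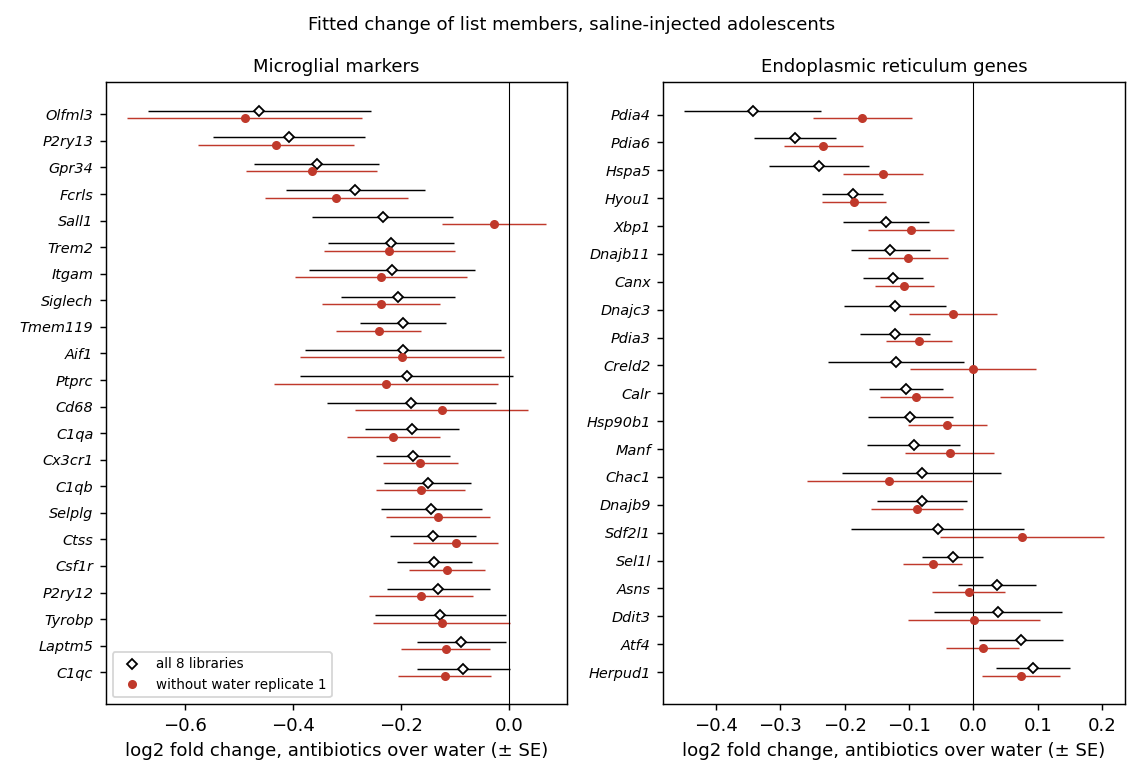
Log2 fold change (antibiotics over water, ± SE) of tested microglial markers (left, 1 of the 23 not drawn) and of each tested endoplasmic reticulum gene (right), with all 8 libraries (open diamonds) and without water replicate 1 (filled circles). The microglial markers drawn and 17 of 21 endoplasmic reticulum genes lie below 0 in the fit of all 8 libraries, and none passed the adjusted threshold in edgeR, while DESeq2 called Pdia6 and Hyou1.

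Astrocyte genes were mixed. Of 18 tested, 11 were below 0, against 52.9% of all genes, and 0 were called in edgeR. DESeq2 called 1, Aqp4, with all 8 libraries and 0 without water replicate 1, and limma-voom called 0. At an unadjusted p under 0.05, 7 were lower and 1 higher, against 5.28% and 4.58% of all genes. Aqp4, the water channel of astrocyte endfeet, was at 57.1, 56.0 and 73.8 CPM with antibiotics, against 119, 78.5, 103, 77.0 and 78.0 CPM with water. The groups did not overlap and water replicate 1 was the highest (log2 fold change -0.55 with it and -0.43 without it, adjusted p = 0.139 and 0.395, edgeR). Mlc1, a membrane protein of the same endfeet, had a log2 fold change of -0.24 and Fabp7, a fatty acid binding protein, one of -0.51. Etnppl, which breaks down phosphoethanolamine, ran the other way, with 27.6 ± 4.69 CPM with antibiotics (SD, n = 3) and 17.8 ± 3.29 CPM with water (SD, n = 5; log2 fold change 0.64, adjusted p = 0.25). Its log2 fold change was 1.25 in saline-injected adults and 1.00 in morphine-injected adolescents.

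Among 29 glutamate receptor genes, 0 were called in edgeR. At an unadjusted p under 0.05, 2 were higher and 4 lower, against 4.58% and 5.28% of all genes. Water replicate 1 was the lowest of the water libraries in the summed level of this list. Without it, 0 were higher and 6 lower, against 4.04% and 3.71% of all genes. DESeq2 called Grm3 alone with all 8 libraries and 0 without water replicate 1. Grm3, a metabotropic receptor present in astrocytes and neurons, was at 50.4, 52.3 and 53.5 CPM with antibiotics, against 65.5, 61.8, 64.8, 64.2 and 60.9 CPM with water. The groups did not overlap, and the log2 fold change was -0.29 (SE 0.07, adjusted p = 0.125, edgeR), or -0.27 without water replicate 1. It fell by 0.38 on the log2 scale in morphine-injected adolescents (adjusted p = 0.000871) and had a log2 fold change of -0.26 in saline-injected adults (adjusted p = 0.187). Grm5, another metabotropic receptor, averaged 160 ± 1.65 CPM with antibiotics (SD, n = 3) and 185 ± 6.76 CPM with water (SD, n = 5; log2 fold change -0.21, adjusted p = 0.25). Oprm1, the receptor through which morphine acts, was at 4.12, 3.47 and 3.54 CPM with antibiotics, against 4.26, 4.56, 3.00, 2.90 and 3.91 CPM with water. The antibiotics range lay within the water range, and the fitted difference was close to 0 with an SE of 0.18 on the log2 scale.

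Immediate early genes were mostly above 0. Of 36 tested, 28 were above 0 with all 8 libraries, against 47.1% of all genes, and 0 were called in edgeR. DESeq2 called 1, Dusp5, with all 8 libraries and 0 without water replicate 1, and limma-voom called 0. At an unadjusted p under 0.05, 8 were higher and 0 lower, against 4.58% and 5.28% of all genes. The median log2 fold change was 0.26, and 0.13 without water replicate 1, in which the summed level of the list was lowest at 1304 CPM. Without antibiotics replicate 1 the median was 0.38 and without antibiotics replicate 5 it was 0.08. The summed levels were 1696 to 2431 CPM with antibiotics and 1304 to 2303 CPM with water, so the groups overlapped. Dusp5, a phosphatase that switches off ERK kinases, was at 12.7, 14.4 and 14.8 CPM with antibiotics, against 6.88, 10.9, 5.76, 11.5 and 9.62 CPM with water (log2 fold change 0.65, SE 0.16, adjusted p = 0.125). Its groups did not overlap, nor did those of Sik1, a salt-inducible kinase (0.44, adjusted p = 0.28), and the transcription factor Klf10 (0.40, adjusted p = 0.32). Fos was at 23.6, 29.8 and 42.4 CPM with antibiotics, against 14.51, 27.24, 14.02, 40.71 and 33.9 CPM with water. The groups overlapped (log2 fold change 0.30, SE 0.38, adjusted p = 0.834).

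The antibiotic effect was then compared between saline-injected and morphine-injected adolescents, which share no library. The difference passed for 12 of 19332 genes (0.0621%), all with a higher antibiotic effect under saline, and for 12 without water replicate 1 (0.0623%), of which 10 were the same genes. These genes are named because they passed and so were chosen after their values were seen. They are Spry4, Stk40, Per1, Nab2, Dusp5, Klf10, Midn, Gm16229, Ier5l, Sik1, Dnajb5 and Frmd6, of which Dusp5, Klf10 and Sik1 belong to the immediate early list. When each saline library was left out in turn, the count was 5 without antibiotics replicate 5, 6 without antibiotics replicate 2 and 21 without water replicate 4, and Spry4, Stk40, Per1, Nab2 and Klf10 passed each time.

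Spry4, which damps signalling by growth factor receptors, was at 17.7, 18.9 and 17.7 CPM with antibiotics and saline, against 9.56, 15.0, 13.2, 17.6 and 14.9 CPM with water and saline. With antibiotics and morphine it was at 10.69, 10.71, 11.03, 12.15 and 10.1 CPM, against 16.3, 18.8, 20.5, 18.3 and 22.7 CPM with water and morphine. The antibiotics libraries lay above the water libraries with saline and below them with morphine. The log2 fold changes were 0.37 with saline (adjusted p = 0.327) and -0.82 with morphine (adjusted p = 0.000512), and their difference was 1.20 (SE 0.18, adjusted p = 0.0017, edgeR).

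Per1 averaged 139 ± 14.02 CPM with antibiotics (SD, n = 3) and 99.7 ± 11.98 CPM with water (SD, n = 5) under saline, and 114 ± 13.3 CPM with antibiotics and 138 ± 10.01 CPM with water under morphine (SD, n = 5 each). The difference of its antibiotic effects was 0.75 (SE 0.12, adjusted p = 0.00341, edgeR), while the effect under morphine alone was -0.27 (adjusted p = 0.0911). Stk40, a kinase-like protein, averaged 41.3 ± 1.35 CPM with antibiotics (SD, n = 3) and 35.3 ± 4.601 CPM with water (SD, n = 5) under saline, and 29.0 ± 2.35 CPM with antibiotics and 40.3 ± 2.69 CPM with water under morphine (SD, n = 5 each), a difference of effects of 0.71. Nab2, a corepressor of EGR transcription factors, had a difference of 0.61, Dusp5 one of 1.24 and Klf10 one of 1.10. Over the whole immediate early list, 35 of 36 genes were below 0 under morphine, against 50.5% of all genes, with a median log2 fold change of -0.49. In saline-injected adults 20 were below 0, against 48.9% of all genes, and 16 above 0, with a median of -0.03.

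**Figure D4:**
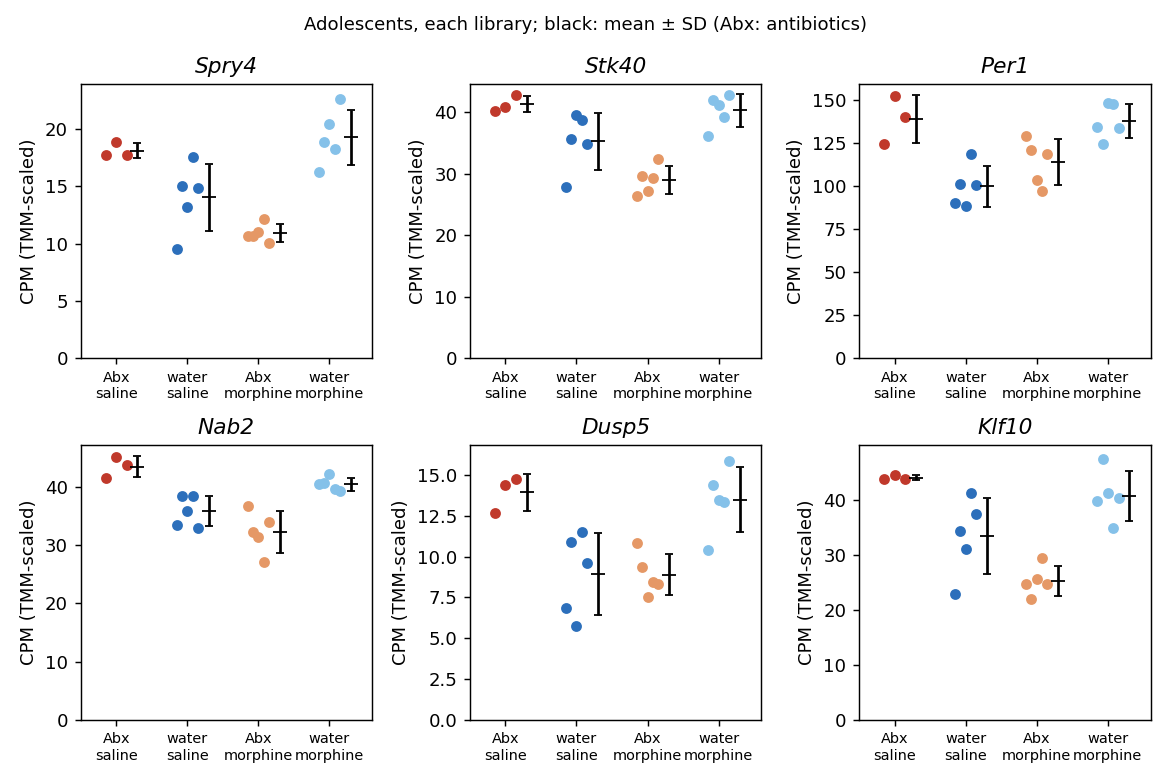
CPM of Spry4, Stk40, Per1, Nab2, Dusp5 and Klf10 in each adolescent library, with antibiotics left of water under saline (3 and 5 libraries) and under morphine (5 and 5 libraries), and the mean and SD in black. Under saline the antibiotics mean is above the water mean and under morphine it is below, as for Spry4 with 18.1 and 14.1 CPM under saline and 10.9 and 19.3 CPM under morphine.

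The antibiotic effect was also compared between saline-injected adolescents and saline-injected adults, the question of age in the series title. The difference passed for 0 genes in edgeR, DESeq2 and limma-voom, with 1071 genes at an unadjusted p under 0.05 (5.54%) and a smallest adjusted p of 0.866. Ntn5 and Adm had the same difference of 1.22 on the log2 scale (unadjusted p = 0.000788 and 0.00335), with log2 fold changes of -0.07 and -0.06 in adults. For Per1 the difference was 0.36 (unadjusted p = 0.0107). These genes were chosen by their values in saline-injected adolescents, whose libraries also enter this difference, so its size and p are affected by that choice. The values describe single genes, and a p that misses the threshold does not show that the ages respond alike.

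Genes that respond to glucocorticoid stress hormones, with the 2 receptors for them, were more often above than below 0. Of 24 tested, 18 were above 0 with all 8 libraries and 20 without water replicate 1, against 47.1% and 50.9% of all genes. In edgeR 0 were called. At an unadjusted p under 0.05, 6 were higher and 1 lower, against 4.58% and 5.28% of all genes. The median log2 fold change was 0.09 in both fits and 0.23 in saline-injected adults. Fkbp5, a chaperone that restrains the glucocorticoid receptor, was at 28.3, 29.9 and 30.8 CPM with antibiotics, against 24.6, 18.1, 21.3, 20.9 and 23.4 CPM with water. The groups did not overlap (log2 fold change 0.44, SE 0.17, adjusted p = 0.353, edgeR). Plin4, a coat protein of lipid droplets, was at 3.41, 2.66 and 2.58 CPM with antibiotics, against 1.27, 0.854, 1.06, 1.11 and 1.89 CPM with water, a log2 fold change of 1.17 (adjusted p = 0.292). It rose by 1.83 in saline-injected adults (adjusted p = 0.0421) and by 1.29 in morphine-injected adolescents (adjusted p = 0.0307), where Fkbp5 also rose by 0.70 (adjusted p = 0.0102). Map3k6, a stress-activated kinase, had a log2 fold change of 0.61 and did not overlap between groups. Sgk1, a kinase induced by glucocorticoids, was at 69.8, 49.5 and 44.9 CPM with antibiotics, against 67.1, 32.5, 37.5, 38.2 and 47.1 CPM with water, and water replicate 1 was among the highest (log2 fold change 0.28 with it and 0.48 without it, adjusted p = 0.707 and 0.609).

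Several lists followed water replicate 1. The 18 myelin genes were all below 0 with all 8 libraries (median log2 fold change -1.03) and all above 0 without water replicate 1 (median 0.44), and 0 passed in either fit. Mbp, the myelin basic protein, was at a log2 difference of -1.08 with that library (adjusted p = 0.588, edgeR) and 0.39 without it (adjusted p = 0.89). All 15 striatal genes were below 0 with it and 10 were above 0 without it, with medians of -1.12 and 0.05. The median of 80 cytosolic ribosomal protein genes did not follow that library and was 0.05 in both fits. Of these genes, 61 were above 0 with it and 66 without it, against 47.1% and 50.9% of all genes. In saline-injected adults 78 were above and 2 below 0, against 48.9% of all genes below 0, with a median of 0.14. Of 13 genes of the mitochondrial genome 0 were called in edgeR and 0 had an unadjusted p under 0.05.

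**Figure D5:**
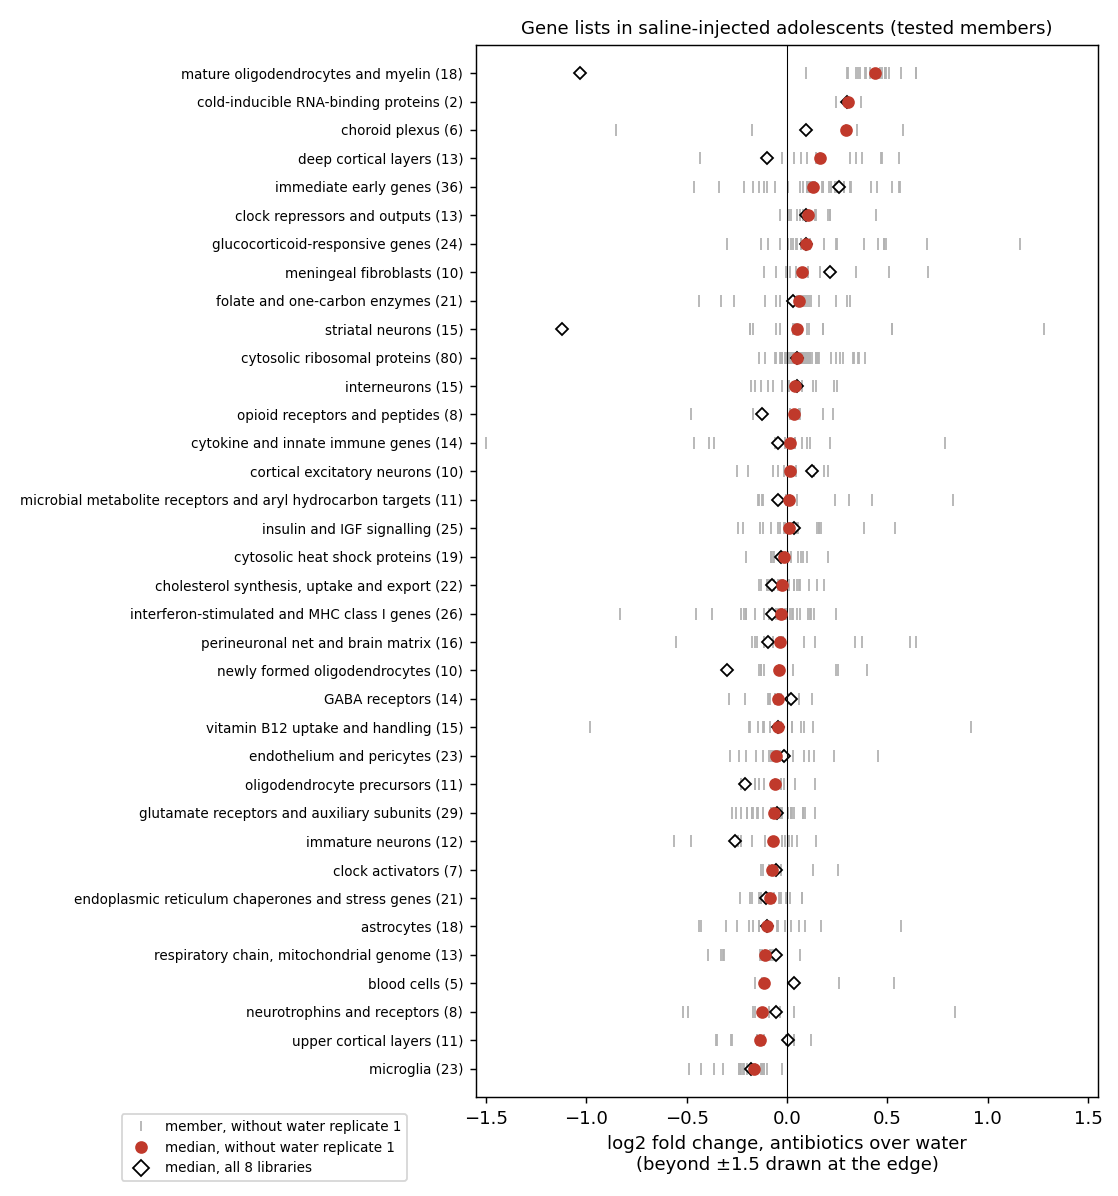
Log2 fold changes (antibiotics over water) of the gene lists in saline-injected adolescents, with the number of tested members in brackets. Grey ticks are members and filled circles medians without water replicate 1, and open diamonds are medians with all 8 libraries. Myelin and striatal lists lie at -1.03 and -1.12 only with water replicate 1, while the microglial median is -0.18 with it and -0.16 without it.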

How the data were processed

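Per the labels, a Qiagen RNeasy kit gave the RNA and an ABclonal kit the polyadenylated libraries. The authors deposited 1 table of raw counts. STAR 2.7.10a, DESeq2 and mm10 appear in the submitters' processing notes. The sources used here give neither their roles nor a strand setting or annotation release. The deposited table has 56980 genes. Symbols and coordinates came from GENCODE M21 (GRCm38), which matched 52073 identifiers, and the other 4907 hold 3.86% of counts.

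The analysis used edgeR 4.0.16 in R 4.3.3, with TMM factors, filterByExpr on the 8 groups, and 1 robust quasi-likelihood fit of the 35 libraries over 1000000 counts (10630727 to 31560468 counts) with a mean per group, repeated with 34. P-values were adjusted by the Benjamini-Hochberg method over all genes tested, with a threshold of 0.05. CPM use TMM-scaled totals. A count at an unadjusted p under 0.05 is a description. "Not overlapping" means that all libraries of 1 group lie on 1 side of the other group. Fold changes are fitted with a prior count of 0.125.

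The groups, gene lists and named genes were chosen with earlier results of these data known. Named are genes past the threshold in either fit, the 10 smallest p per direction in each fit, the 6 largest changes per direction at p under 0.01 in both, up to 4 members of each list by p, and 14 genes named outright. Genes with a mean under 1 CPM in the higher group or a predicted name were left out of the rankings, and the text gives a part of the set. Further members of lists are given as examples chosen after their values were seen. Lists are described by counts and medians with no set test, and 1 microglial marker counted in its list is not reported singly here.

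Alternatives were DESeq2 1.42.0, limma-voom with sample weights (limma 3.58.1), DESeq2 size factors, no filter and all 37 libraries. Others were the compared groups alone, the replicate number as a block, a term for islet transcripts, and leaving out each library. DESeq2 without water replicate 1 was added after seeing the data. The edgeR step was tested on simulated counts. Replicate libraries differed by more than sampling noise in every pair. Promoters are RefSeq windows of GRCm38.p6.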

Additional observations from a re-analysis of the deposited data

Results flagged for a closer look

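Of 87 values tested in the 5 water libraries, 17 had 1 library far from the other 4. Chance marks about 1 in 20 independent values. The values here share genes and were chosen with earlier results known, so that rate cannot be applied to them. In 13 of the 17 the far library was water replicate 1, already singled out above for its striatal and myelin transcripts. Its Drd2 level was 53.3 CPM, its Mbp level 8551 CPM and its Hspa5 level 238 CPM. Its summed CPM was 21550 for myelin genes, 1107 for oligodendrocyte precursors, 753.8 for newly formed oligodendrocytes, 2349 for striatal neurons and 402.2 for opioid receptors and peptides, each the highest of its group. It was the lowest for cortical excitatory neurons (4962), interneurons (1251), glutamate receptors (3641), GABA receptors (2216) and neurotrophins and their receptors (1465). Water replicate 3 was highest in P2ry13 (13.02 CPM), in interferon-stimulated and MHC class I genes (236.9 summed CPM) and in endothelial and pericyte genes (939.7). Water replicate 5 held 38.1 summed CPM of islet hormone transcripts, against at most 0.25 in the other 4.

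The antibiotic effect under saline exceeded that under morphine in adolescents, by an interaction test, for Spry4 (1.20 on the log2 scale), Stk40 (0.71), Per1 (0.75), Nab2 (0.61), Dusp5 (1.24), Klf10 (1.10), Midn (0.66), Ier5l (0.66), Sik1 (0.97), Dnajb5 (0.57) and Frmd6 (0.64). The samples' cortical and myelin content was not tested as a source of these differences, and 10 of the 12 calls were also made without water replicate 1.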

How the results depend on the processing

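With 3 and 5 libraries, calls for antibiotics against water depended on the setting. In place of 2, the count was 1 with all 37 libraries, 0 without water replicate 1, 55 in DESeq2 (33 higher, 22 lower), 22 in DESeq2 without water replicate 1, 15 in limma-voom (8 higher, 7 lower), 0 with the compared groups alone and 1 with these and without water replicate 1, where Bc1 passed. Leaving out 1 library each gave 0 to 30. It was 2 with DESeq2 size factors, 2 with the islet term and 3 without a filter. For saline against morphine in adolescents the count was 26 in DESeq2, 27 in DESeq2 without water replicate 1, 8 with the compared groups alone and 5 to 21 when leaving out 1 saline library. For the ages it was 0 throughout.

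Samples with the same replicate number were not closely correlated in their deviations from the group mean (0.026, 0.0313 and -0.0528). Water replicate 1 entered those means, so these values do not settle whether the numbers pair the samples. With the replicate number as a block the counts were 2 for antibiotics against water, 0 for the ages and 17 for saline against morphine.

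Of 711 settings of 42 named genes, 646 kept their direction and side of the threshold, 17 lost the call (Igfbp4 and Amn), 38 gained one (20 genes) and 10 changed sign. Mbp was at 0.3886 without water replicate 1, 0.2921 in limma-voom, 0.3873 with the compared groups alone and without that library, and -1.328 to 0.3886 when leaving out 1 library. Oprm1 was at 0.06615, 0.07247 and 0.0673 in those, and at -0.08198 to 0.06615 when leaving out 1 library. Cubn, C3, Colq, Adm, Ntn5, Plin4 and Drd2 were below 1 CPM in at least 1 library, and values at that level rest on few counts.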
